A study of Mus musculus with 8 samples.

Results

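The 10 genes that mark the resident macrophages of the liver, the Kupffer cells, were followed in whole-liver RNA of male C57BL/6 mice kept on a high-fat or a normal diet. They were Adgre1, Clec4f, Timd4, Vsig4, Marco, Cd5l, Folr2, Cd163, Csf1r and Msr1, chosen by name, and every probe assigned to them was taken, 14 probes among 55603 with values. Of these genes 9, or 9 of 20164 measured features, had a probe well above background, and the Cd163 probe was not well above background on any of the 8 arrays. The mice had been bought at 5 weeks of age and fed for 3 or 9 months, HFD at 58% fat and ND at 4.8% fat. There were 4 groups of 2 mice: HFD for 3 months, ND for 3 months, HFD for 9 months and ND for 9 months. Each mouse was measured on an array of its own by 1-colour Agilent hybridisation of Cy3-labelled RNA, so each group rests on 2 animals. No transgene or deletion is named in the labels, and diet and its duration are the factors by which the labels part the groups. Since all mice were bought at the same age, those fed for 9 months were also older. Duration of feeding therefore cannot be told apart from age in any comparison of 9 with 3 months.

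Kupffer cells sit inside the liver sinusoids and clear bacteria, dying cells and modified lipoproteins from portal blood. They depend on signalling through the CSF1 receptor, and transcription factors such as PU.1, ZEB2, ID3, SPI-C and LXRα shape their identity. In fatty liver the embryonically seeded, TIM-4-positive cells can be lost in part and replaced from blood monocytes, whose descendants gain several Kupffer cell markers early and TIM-4 late. In whole-liver RNA, fewer cells of a type and less RNA per cell cannot be told apart, and this holds for every value that follows.

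Promoter windows of 5 of the markers are shown because these genes carry the patterns described later: Cd5l, Vsig4 and Clec4f keep close to the common profile of the markers, and Timd4 and Marco depart from it. The windows were taken from RefSeq on GRCm38.p6, run 5′ to 3′ on the strand of the gene and span 250 bases before to 50 after its start. Capitals mark the PU.1 core GAGGAA and the MAF half-site TGCTGA, or their complements TTCCTC and TCAGCA. The Cd5l window lies at chr3:87357631-87357930 on the plus strand, that of Vsig4 at chrX:96293389-96293688 on the minus strand and that of Clec4f at chr6:83656067-83656366 on the minus strand. The Timd4 window lies at chr11:46810549-46810848 on the plus strand and that of Marco at chr1:120504975-120505274 on the minus strand.
Cd5l: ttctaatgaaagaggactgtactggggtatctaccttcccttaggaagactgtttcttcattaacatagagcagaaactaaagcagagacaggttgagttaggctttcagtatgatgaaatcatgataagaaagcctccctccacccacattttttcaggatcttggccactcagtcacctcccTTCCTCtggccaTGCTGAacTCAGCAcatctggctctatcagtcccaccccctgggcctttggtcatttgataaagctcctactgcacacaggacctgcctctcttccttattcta
Vsig4: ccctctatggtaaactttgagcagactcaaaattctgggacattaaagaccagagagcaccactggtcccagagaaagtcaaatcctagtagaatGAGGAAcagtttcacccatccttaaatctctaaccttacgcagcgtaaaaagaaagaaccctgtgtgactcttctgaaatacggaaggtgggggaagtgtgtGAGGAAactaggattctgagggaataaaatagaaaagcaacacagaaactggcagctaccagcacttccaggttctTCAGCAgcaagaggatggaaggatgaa
Clec4f: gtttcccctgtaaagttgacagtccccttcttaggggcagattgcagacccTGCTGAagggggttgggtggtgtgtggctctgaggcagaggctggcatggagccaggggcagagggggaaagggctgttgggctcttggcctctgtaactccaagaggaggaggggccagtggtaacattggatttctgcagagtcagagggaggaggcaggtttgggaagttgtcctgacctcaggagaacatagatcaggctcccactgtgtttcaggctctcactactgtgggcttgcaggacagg
Timd4: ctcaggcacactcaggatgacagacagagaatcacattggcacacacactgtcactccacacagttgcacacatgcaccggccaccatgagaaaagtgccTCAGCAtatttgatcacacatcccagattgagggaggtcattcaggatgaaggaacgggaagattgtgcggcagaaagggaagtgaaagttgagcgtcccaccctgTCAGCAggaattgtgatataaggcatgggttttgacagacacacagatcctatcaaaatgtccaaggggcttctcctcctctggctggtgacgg
Marco: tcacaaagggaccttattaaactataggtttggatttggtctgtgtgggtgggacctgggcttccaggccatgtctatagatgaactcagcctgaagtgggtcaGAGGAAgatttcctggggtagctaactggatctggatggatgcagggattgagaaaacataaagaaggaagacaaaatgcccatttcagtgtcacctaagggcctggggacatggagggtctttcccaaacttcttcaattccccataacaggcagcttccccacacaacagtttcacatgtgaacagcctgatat

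Windows of 7 of the 10 genes were searched (8 windows, with 2 for Folr2 and 1 for the unmeasured Cd163). No window was at hand for Adgre1 and Msr1, and Csf1r was left out of the search. The MAF half-site stood in windows of 5 of the 7 genes, namely Cd5l, Clec4f, Folr2, Timd4 and Vsig4, against 19.5% of all 32851 windows of 300 bases. In the Cd5l window 2 half-sites face each other, with 2 bases between them. The Marco window held no MAF half-site. The PU.1 core stood in windows of 3 genes, Cd5l, Marco and Vsig4, against 28.3% of all windows. The RBPJ core TGGGAA stood in those of Clec4f and Marco (25.6% of all windows), and the nuclear receptor half-site AGGTCA in those of Clec4f and Timd4 (16.3%). Both strands were searched, and no 2 matches shared a base. A match of letters is a description and was not tested as a binding site.

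All levels below are log2 signals relative to the 75th percentile of the array, so that 0 is the signal that 75% of the spots did not exceed, and levels of different genes cannot be set against each other on this scale. Between 40.6% and 54.1% of spots per array were well above background. The 75th percentile lay at 185 intensity units on the array of HFD mouse 2 at 9 months and at 368 to 597 on the other 7 arrays. All HFD arrays lay on 1 slide and all ND arrays on another. On both slides the 3-month arrays filled row 1 and the 9-month arrays row 2. Diet therefore cannot be told apart from slide, nor duration from row. Mouse 1 of each group lay in column 1 and mouse 2 in column 2. The difference between the 2 mice of a group thus cannot be told apart from column. The mean log2 level of 9 measured hepatocyte markers was 8.32 to 8.54 on the 4 HFD arrays, all below the 4 ND arrays at 8.82 to 9.11.

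**Figure D1:**
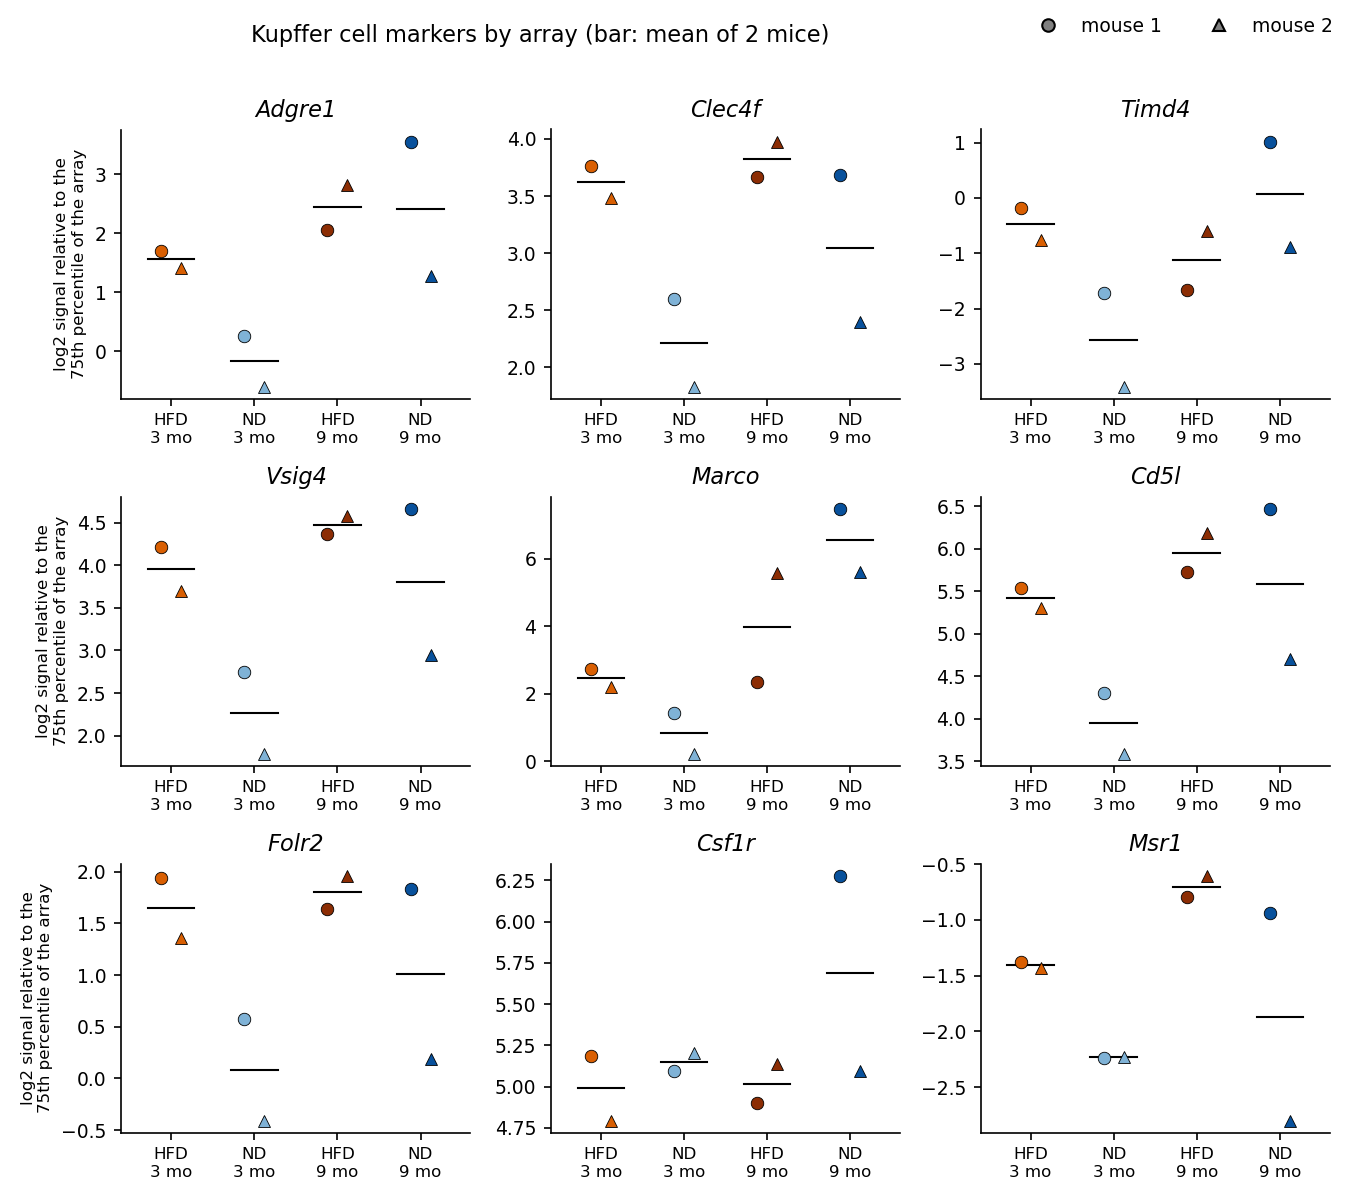
Level of the 9 measured Kupffer cell markers on each array (y axis, log2 signal relative to the 75th percentile of the array, with a scale of its own for each gene) in HFD and ND livers at 3 and 9 months (x axis). Circles are mouse 1, triangles mouse 2 and bars the mean of both. All markers but Csf1r lie higher in both HFD mice than in both ND mice at 3 months, and in ND at 9 months mouse 1 lies above mouse 2 for every marker.

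The first comparison asks how HFD and ND livers differ after 3 months. Among the 9 markers 8 lay higher in both HFD mice than in both ND mice, by 1.8-fold (Msr1) to 4.26-fold (Timd4), where 35.6% of all features were higher in both HFD mice. None of the 9 passed an adjusted p of 0.05 in limma, against 5.18% of all features, and their adjusted p ran between 0.128 and 0.819. At an unadjusted p under 0.05 limma counted 5 of the 9 markers, against 26.3% of all features. The median log2 difference over the 9 markers was 1.57, against -0.01 over all features.

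Clec4f, a lectin receptor that in mice is largely restricted to Kupffer cells, had log2 levels of 3.76 and 3.48 in HFD mice, against 2.60 and 1.83 in ND mice. The groups did not overlap, and the log2 difference was 1.40 ± 0.47 (SE, limma adjusted p = 0.128), the smallest adjusted p of the 9. Vsig4, the complement receptor CRIg that captures opsonised bacteria, stood at 4.22 and 3.69 in HFD mice, against 2.74 and 1.79 in ND mice. Its log2 difference was 1.69 ± 0.60 (SE, limma adjusted p = 0.143), and both HFD mice again lay above both ND mice. Adgre1, which encodes an adhesion receptor long used to stain mouse macrophages, stood at 1.71 and 1.41 in HFD mice, against 0.27 and -0.59 in ND mice. Its log2 difference of 1.72 ± 0.74 (SE) had an adjusted p of 0.2 in limma.

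Timd4 encodes TIM-4, the phosphatidylserine receptor through which resident macrophages take up dying cells. It stood at -0.18 and -0.77 in HFD mice, against -1.72 and -3.41 in ND mice, and the probe was well above background in 1 of the 2 ND mice. The log2 difference was 2.09 ± 0.81 (SE, limma adjusted p = 0.168). It rested on the dim ND mouse 2 and on the scaling of dim signals: without that mouse it was 1.25, after normexp background correction 1.07 and with the authors' log2 values 0.80. Marco, a scavenger receptor for bacteria carried by part of the Kupffer cells, stood at 2.74 and 2.19 in HFD mice, against 1.42 and 0.23 in ND mice. Both HFD mice lay higher, with a log2 difference of 1.64 ± 1.12 (SE, limma adjusted p = 0.389). Msr1, the class A scavenger receptor for modified lipoproteins, stood at -1.38 and -1.43 in HFD mice, against -2.24 and -2.23 in ND mice. The 2 mice of each diet were nearly equal for Msr1, and its log2 difference was 0.83 ± 0.55 (SE, limma adjusted p = 0.372), with the spread shared over all 4 groups. In a fit of the 3-month arrays alone Msr1 passed, at a limma adjusted p of 0.0354, and that fit called 13.8% of all features.

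Cd5l, a secreted protein of macrophages also known as AIM, stood at 5.54 and 5.30 in HFD mice, against 4.30 and 3.59 in ND mice. Folr2, folate receptor β, stood at 1.94 and 1.36 in HFD mice, against 0.58 and -0.41 in ND mice. For both genes the groups did not overlap, with log2 differences of 1.47 ± 0.58 and 1.57 ± 0.59 (SE). Csf1r, the receptor for the growth factors CSF1 and IL-34, was the exception, at 5.19 and 4.79 in HFD mice and 5.09 and 5.21 in ND mice with the probe used for the gene. Its groups overlapped, and its log2 difference was -0.16 ± 0.39 (SE, limma adjusted p = 0.819). The probes of Csf1r disagreed, as described later.

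After 9 months most markers overlapped between the diets. Of the 9, 6 had a higher mean in HFD livers and 3 a lower one, Adgre1 lying so close to 0 that its sign turned under other scalings, with a median log2 difference of 0.37, against 0.02 over all features. Limma called none of the 9 at an adjusted p of 0.05 and none at an unadjusted p of 0.05, against 8.28% and 28.7% of all features. Msr1 was the 1 marker higher in both HFD mice, where 28.5% of all features were, and Marco the 1 marker lower in both, where 26.1% were.

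Marco stood at 2.36 and 5.58 in HFD mice, against 7.49 and 5.60 in ND mice. The groups were parted by the narrow gap between HFD mouse 2 and ND mouse 2, and the 2 HFD mice differed by 3.23 on the log2 scale. The log2 difference between diets was -2.58 ± 1.12 (SE), a 5.96-fold lower mean in HFD livers, at a limma adjusted p of 0.192. Without HFD mouse 2 it was -4.19 and passed, at a limma adjusted p of 0.0485, in a fit that called 12.4% of all features.

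Msr1 stood at -0.80 and -0.60 in HFD mice, against -0.94 and -2.80 in ND mice. Both HFD mice lay higher, and the log2 difference was 1.17 ± 0.55 (SE, limma adjusted p = 0.219). Without ND mouse 1 it was 2.10 at a limma adjusted p of 0.0266, where 4.3% of all features were called. Timd4 stood at -1.66 and -0.59 in HFD mice, against 1.01 and -0.89 in ND mice, and its log2 difference of -1.19 ± 0.81 (SE) had a limma adjusted p of 0.375. The HFD mice fell on both sides of ND mouse 2.

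Adgre1 stood at 2.06 and 2.82 in HFD mice, against 3.55 and 1.27 in ND mice. The ND mice enclosed both HFD mice, and the log2 difference was 0.03 ± 0.74 (SE). Clec4f stood at 3.67 and 3.98 in HFD mice, against 3.69 and 2.40 in ND mice, a log2 difference of 0.78 ± 0.47 (SE, limma adjusted p = 0.319). Vsig4 (4.37 and 4.58 in HFD mice, 4.66 and 2.94 in ND mice) and Cd5l (5.72 and 6.18 in HFD mice, 6.47 and 4.70 in ND mice) had the same arrangement as Adgre1, with ND mouse 1 highest and ND mouse 2 lowest. Folr2 stood at 1.64 and 1.96 in HFD mice and 1.83 and 0.18 in ND mice, and Csf1r at 4.90 and 5.13 in HFD mice and 6.28 and 5.10 in ND mice. Neither gene parted the diets.

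**Figure D2:**
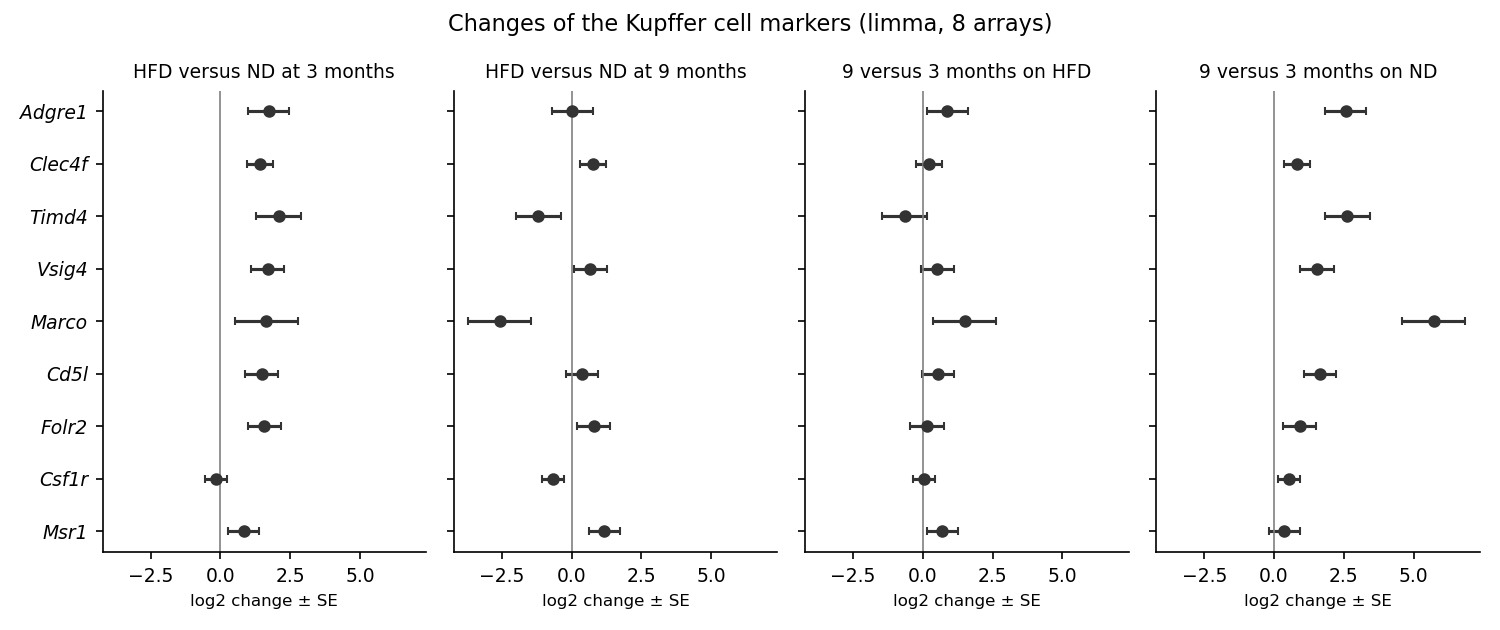
Log2 change ± SE of the 9 markers (rows) in 4 comparisons (panels), from limma on 8 arrays. Marco has the widest bars and the largest change, 5.72 at 9 against 3 months on ND, and no change passed an adjusted p of 0.05.

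With longer feeding on ND all 9 markers had a higher mean at 9 than at 3 months, and 5 were higher in both older mice, where 23.4% of all features were. The median log2 difference was 1.54, against -0.07 over all features. None passed an adjusted p of 0.05 in limma, against 1.04% of all features, while 5 had an unadjusted p under 0.05 in limma, against 15.9%. Marco stood at 7.49 and 5.60 at 9 months, against 1.42 and 0.23 at 3 months, and every 9-month value exceeded every 3-month value by over 4 on the log2 scale. Its mean was 52.7-fold higher at 9 months, a log2 difference of 5.72 ± 1.12 (SE) with a limma adjusted p of 0.0852. That adjusted p was 0.0452 after normexp background correction (1.04% of all features called), 0.0159 with array weights (6.99%), and 0.0437 without HFD mouse 1 or without HFD mouse 2 of the 9-month group (1.69% each), both of which bear on the shared spread alone.

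Timd4 stood at 1.01 and -0.89 at 9 months on ND, against -1.72 and -3.41 at 3 months, a log2 difference of 2.63 ± 0.81 (SE, limma adjusted p = 0.199), which was 1.79 without the dim ND mouse 2 at 3 months and 1.54 with the authors' log2 values. Adgre1 stood at 3.55 and 1.27, against 0.27 and -0.59, a log2 difference of 2.57 ± 0.74 (SE, limma adjusted p = 0.176). Neither gene overlapped between the durations. Cd5l and Vsig4 were the other two markers higher in both 9-month ND mice, with log2 differences of 1.64 ± 0.58 and 1.54 ± 0.60 (SE). Clec4f, Folr2, Csf1r and Msr1 differed by 0.36 to 0.92 on the log2 scale and overlapped between the durations.

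On HFD the same step in feeding time gave smaller differences. Of 9 markers 8 had a higher mean at 9 months, 4 were higher in both older mice, where 21% of all features were, and the median log2 difference was 0.52. Limma called none, against 0.00992% of all features (2 of 20164), and none of the 9 had an unadjusted p under 0.05, against 15.5% of all features. Timd4 was the 1 marker with a lower mean at 9 months, by -0.65 ± 0.81 (SE) on the log2 scale. Marco had a 2.84-fold higher mean (limma adjusted p = 0.525), which rested on HFD mouse 2: without that mouse it was -0.11.

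The difference between the diet effects at 9 and at 3 months was fitted as an interaction. It lay below 0 for 8 of 9 markers, with a median of -1.02 on the log2 scale, and Msr1 was the exception at 0.34 ± 0.78 (SE). Limma called none of the 9 and 0% of all features at an adjusted p of 0.05, and counted 2 of the 9, Marco and Timd4, at an unadjusted p under 0.05, against 7.62% of all features. For Marco the interaction was -4.21 ± 1.59 (SE, limma adjusted p = 0.628), and for Timd4 it was -3.28 ± 1.14 (SE, limma adjusted p = 0.601). The diet differences at the 2 durations were therefore not shown to differ for any marker.

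The 2 mice of a group, whose difference cannot be told apart from slide column, were then compared marker by marker, above all in ND at 9 months. There mouse 1 exceeded mouse 2 for 9 of 9 markers, each by over 1 on the log2 scale with the probe used for the gene, where 4.21% of all features had mouse 1 higher by that much. The difference ran between 1.18 (Csf1r) and 2.27 (Adgre1) with a median of 1.77, against 0.01 over all features, and was larger in size than that of 92.4% (Csf1r) to 98.5% (Adgre1) of all features. For Csf1r it depended on the probe: with A_55_P2025073 mouse 1 stood at 0.83, below mouse 2 at 1.28. Mouse 1 of this group was the highest of all 8 arrays for 6 of 9 markers, and HFD mouse 2 at 9 months for the other 3.

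In ND at 3 months mouse 1 was higher for 7 of 9 markers with a median difference of 0.86, and these 7 differences exceeded in size those of 95.7% (Cd5l) to 99.6% (Timd4) of all features. The features as a whole differed less between the mice of that group, with a median size of 0.14. There 2 markers, Timd4 (1.68) and Marco (1.19), exceeded 1, against 0.967% of all features. Mouse 2 of that group was the lowest of all 8 arrays for 7 of 9 markers. In HFD at 3 months mouse 1 was higher for 9 of 9 markers, but by at most 0.59 and a median of 0.39, and none exceeded 1, against 3.79% of all features. In HFD at 9 months mouse 2 was higher for 9 of 9, with a median difference of -0.32 for mouse 1 minus mouse 2. There mouse 2 exceeded mouse 1 by over 1 for Marco (-3.23) and Timd4 (-1.07), where 10.4% of all features had mouse 2 higher by that much. In size the Marco difference exceeded every marker's difference in ND at 9 months.

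The 9-month ND values therefore depend on which mouse is used. Without ND mouse 1 the median log2 difference between HFD and ND at 9 months was 1.25, and without ND mouse 2 it was -0.52, against 0.37 with both. The median log2 difference between 9 and 3 months on ND was 0.68 without ND mouse 1 and 2.40 without ND mouse 2. Marco stayed high in this comparison with either mouse, at 4.78 without ND mouse 1 and 6.66 without ND mouse 2.

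**Figure D3:**
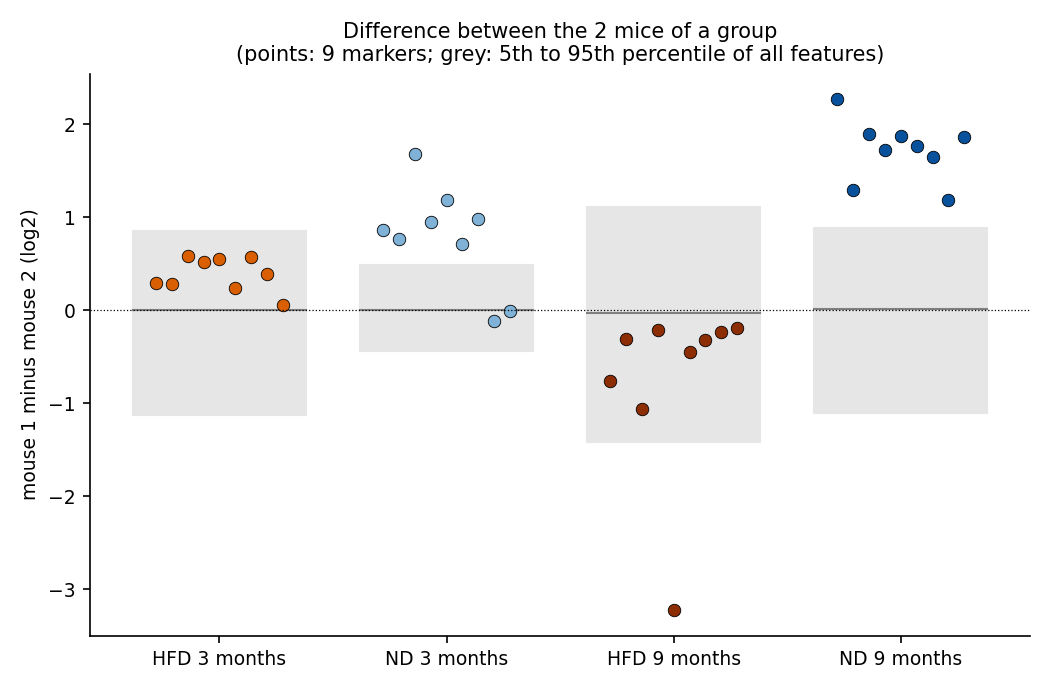
Log2 difference of mouse 1 minus mouse 2 (y axis) for the 9 markers (points) in each group (x axis). Grey bars span the 5th to the 95th percentile of all 20164 features. All 9 points of ND at 9 months lie between 1.18 and 2.27, and the lowest point of HFD at 9 months is Marco at -3.23.

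Other gene lists also differed between these 2 ND mice. In ND at 9 months mouse 1 exceeded mouse 2 by over 1 on the log2 scale for 16 of 17 pan-macrophage and myeloid genes, 9 of 12 further Kupffer-enriched genes, 6 of 10 monocyte genes and 3 of 4 measured B cell markers. It did so for 0 of 9 hepatocyte, 1 of 10 sinusoidal endothelial and 1 of 9 stellate cell markers. The mean log2 level of the B cell markers was -0.96 in mouse 1 and -2.63 in mouse 2, with Cd79a, Pax5, Blk and Fcer2a not measured, and that of 6 neutrophil markers was 1.88 in mouse 1 and 1.27 in mouse 2. The part of these cells in the markers' values was not tested.

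Several genes, Csf1r, Adgre1 and Msr1, had over 1 measured probe. For Csf1r the probe with the highest signal, used for the gene, ran between 4.79 and 6.28 and a second one, A_55_P2025073, between 0.20 and 1.53, and neither parted the diets at 3 months. The third, A_52_P602091, lay higher in both HFD mice at 3 months, as did the other markers. That probe stood at -0.50 and -1.01 in HFD mice, against -1.75 and -2.63 in ND mice at 3 months, and at -0.66 and -0.36 in HFD mice, against 0.54 and -1.30 in ND mice at 9 months. Its log2 difference at 3 months was 1.43 ± 0.62 (SE, limma adjusted p = 0.212), against -0.16 with the probe used and -0.23 with A_55_P2025073. All 3 probes carry the same RefSeq accession in the array annotation, and their sequences were not used here, so which of them reports the transcript was not tested. With A_52_P602091 in place of the probe used, 9 of 9 markers had a higher mean in HFD livers at 3 months.

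The second Adgre1 probe gave log2 differences of 1.69 ± 0.67 (SE) at 3 months and -0.64 ± 0.67 (SE) at 9 months, against 1.72 and 0.03 with the probe used. The sign at 9 months thus depended on the probe, and both values lay within 1 SE of 0. The second Msr1 probe was well above background on 7 of 8 arrays and stood at -3.10 and -2.77 in HFD mice, against -3.31 and -3.47 in ND mice at 3 months. At 9 months it stood at -2.14 and -1.11 in HFD mice, against -2.18 and -3.50 in ND mice, so that both HFD mice lay higher at both durations with either Msr1 probe.

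To see how far the markers shared a profile, each was centred over the 8 arrays and set against the median of the centred markers on each array. That median stood at 0.32 and 0.07 in HFD mice, against -0.70 and -1.63 in ND mice at 3 months, and at 0.50 and 0.95 in HFD mice, against 1.07 and -0.53 in ND mice at 9 months. The root mean square distance from it was 0.1 for Cd5l, 0.171 for Vsig4, 0.278 for Clec4f and 0.279 for Folr2. It was 0.461 for Adgre1, 0.465 for Msr1, 0.69 for Timd4, 0.808 for Csf1r and 1.84 for Marco. Since the median is made of these same markers, the distances describe them and test nothing.

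Marco departed from the profile at 9 months. Relative to the median of the other 8 markers it stood at -1.59 and 1.25 in HFD mice, against 2.98 and 2.76 in ND mice, so that the ND mice lay close although their levels differed by 1.88. At 3 months it stood at -1.16 and -1.36 in HFD mice and -1.34 and -1.63 in ND mice. Over the 8 arrays Marco spanned a 153-fold range, against 21.4-fold for Timd4, 17.6-fold for Adgre1 and 2.8-fold for Csf1r.

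Timd4 relative to the other 8 markers stood at -1.13 and -0.52 in HFD mice, against 0.99 and 0.75 in ND mice at 9 months, and at 0.60 and 0.19 in HFD mice, against 0.08 and -0.79 in ND mice at 3 months. Both HFD mice were thus lower at 9 months and higher at 3 months. Csf1r, with the probe used, stood lower relative to the other markers in both HFD mice at both durations, by -1.70 at 3 months and -1.13 at 9 months. Msr1 stood lower by -0.69 at 3 months and higher by 0.85 at 9 months in HFD livers.

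**Figure D4:**
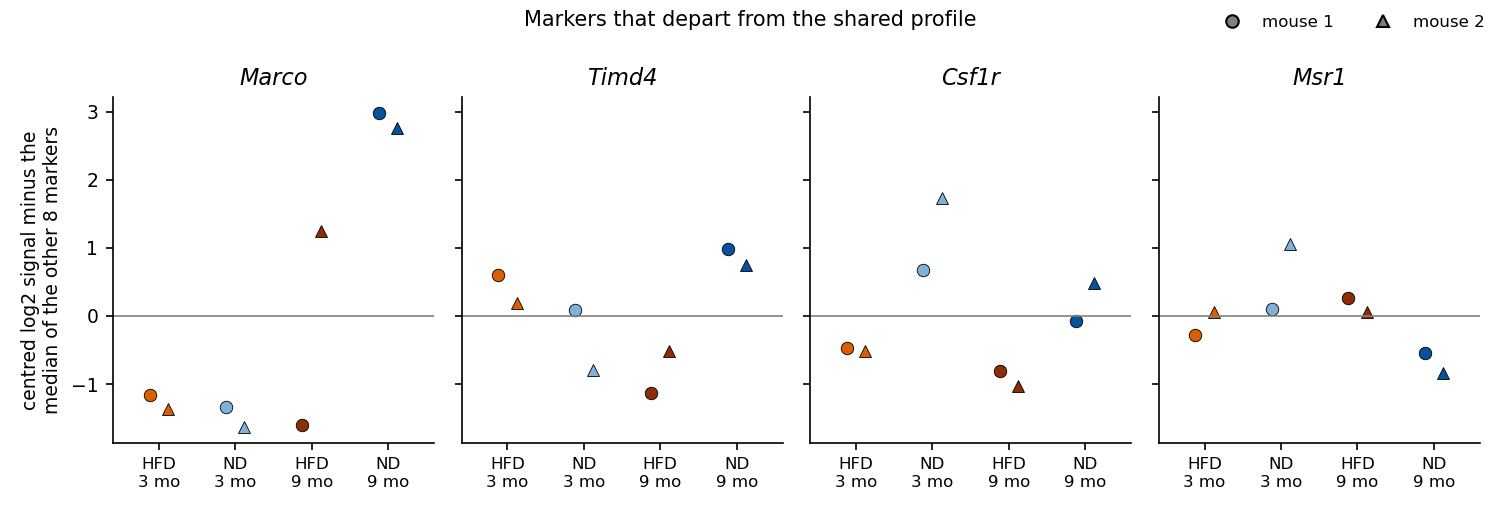
Level of 4 markers relative to the median of the other 8 (y axis, centred log2 signal) on each array (x axis, groups; circles mouse 1, triangles mouse 2). Both ND mice at 9 months sit together at 2.98 and 2.76 for Marco, and both HFD mice at 9 months sit below both ND mice for Marco, Timd4 and Csf1r.

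Markers of lymphoid stroma were read beside Marco, which is also carried by macrophages of the splenic marginal zone. Of 5 such genes 3 were measured, not Nkx2-5 or Tlx1, and their mean log2 level was -2.85 and -1.38 in HFD mice, against 0.36 and -0.83 in ND mice at 9 months. At 3 months it was -2.77 and -2.09 in HFD mice and -1.78 and -2.31 in ND mice. Cxcl13, a chemokine that draws B cells, made up the difference. At 9 months it stood at -3.95 and -0.93 in HFD mice, against 4.86 and 2.01 in ND mice. Its log2 difference was -5.87 ± 1.26 (SE, limma adjusted p = 0.0425). Cxcl13 was well above background in 1 of the 2 HFD mice at 9 months, so the size of this difference rests partly on a dim value. Cr2, at -1.98 and -2.29 in HFD mice and -2.27 and -2.64 in ND mice, and Madcam1, at -2.63 and -0.91 in HFD mice and -1.51 and -1.86 in ND mice, overlapped. In HFD mouse 2 at 9 months, where Marco was at 5.58, the neutrophil markers had a mean of 2.79, against 0.84 in HFD mouse 1. The part of such cells in the Marco values was not tested.

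The genes closest to the common profile of the markers, by the root mean square difference over 8 arrays among 12884 features with a symbol, were genes of leukocytes. They were Itgal (0.122), the α chain of the integrin LFA-1, Nckap1l (0.137), the haematopoietic member of the actin-regulating WAVE complex, Pilra (0.148), an inhibitory receptor of myeloid cells, Tyrobp (0.154), the signalling adaptor DAP12, and Nfam1 (0.159), an adaptor with an activation motif. Tyrobp stood at 2.67 and 2.28 in HFD mice, against 1.39 and 0.73 in ND mice at 3 months, and at 2.93 and 3.20 in HFD mice, against 3.58 and 1.51 in ND mice at 9 months. None of the 5 passed an adjusted p of 0.05 in limma in any of the 5 comparisons.

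Other genes enriched in Kupffer cells were measured for 12 of 14 listed. None passed in HFD against ND livers at either duration, with a median log2 difference of 1.14 at 3 months and 0.12 at 9 months. C1qa, a subunit of the complement component C1q, stood at 2.12 and 1.76 in HFD mice, against 0.53 and -0.32 in ND mice at 3 months, and at 2.14 and 2.31 in HFD mice, against 3.08 and 1.12 in ND mice at 9 months. This is the arrangement of Vsig4 and Cd5l. C6, a complement component, ran the other way, at 2.64 and 1.58 in HFD mice, against 3.64 and 3.94 in ND mice at 3 months (log2 difference -1.68 ± 0.43, SE, limma adjusted p = 0.0748).

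Cd207, the lectin langerin, rose with feeding time on ND. It stood at 0.14 and -0.15 at 9 months, against -2.04 and -2.70 at 3 months, a log2 difference of 2.37 ± 0.32 (SE, limma adjusted p = 0.0374). On HFD it stood at 0.02 and 0.04 at 9 months, against -2.96 and -2.29 at 3 months, a log2 difference of 2.66 ± 0.32 (SE, limma adjusted p = 0.0618). The Cd207 values of all 4 mice at 9 months lay within 0.3 of each other on the log2 scale, and the 2 ND mice that differed for all 9 markers were close for this gene.

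Of 12 transcription factors of Kupffer cells 11 were measured, Spi1, which encodes PU.1, not. None passed in any comparison, and their median log2 difference between HFD and ND was 0.04 at 3 months and -0.66 at 9 months. Id3, an inhibitor of helix-loop-helix factors that Kupffer cells need, stood at 1.70 and 1.58 in HFD mice, against 3.79 and 4.10 in ND mice at 3 months, and at 2.79 and 0.48 in HFD mice, against 4.45 and 2.99 in ND mice at 9 months. Both HFD mice were lower at both durations, by -2.30 ± 0.79 and -2.09 ± 0.79 (SE) on the log2 scale, at limma adjusted p of 0.136 and 0.145. Irf8, a factor of the monocyte lineage, had a log2 difference of 1.26 ± 0.34 (SE, limma adjusted p = 0.0844) at 3 months. Maf stood at 2.15 and 2.08 in HFD mice, against 0.92 and 1.23 in ND mice at 3 months, and at 2.17 and 2.89 in HFD mice, against 1.57 and 1.16 in ND mice at 9 months. Its log2 differences were 1.04 ± 0.30 and 1.16 ± 0.30 (SE), at limma adjusted p of 0.0928 and 0.0632. Runx3, a runt-domain factor measured well above background on 5 of 8 arrays, entered the test only through the ND mice, where it is high. It was well above background in 1 of the 2 HFD mice at 3 months and in 0 at 9 months. Its log2 difference of -1.90 ± 0.47 (SE, limma adjusted p = 0.0592) at 9 months therefore rested on dim HFD signals.

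Spic, the haem-responsive factor of iron-recycling macrophages, stood at 1.93 and -0.22 at 9 months on ND, against -2.09 and -3.04 at 3 months. The log2 difference was 3.42 ± 0.72 (SE, limma adjusted p = 0.0967), the smallest adjusted p of the factors in that comparison. At 9 months on HFD Spic stood at -0.44 and 0.28, between the 2 ND mice. Nr1h3, which encodes LXRα and is also expressed by hepatocytes, stayed between 5.55 and 6.04 on all 8 arrays.

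Of 8 ligands and niche signals 5 were measured, and Csf2, Bmp10 and Dll4 were not. Csf1, a ligand of the CSF1 receptor, stood at 1.14 and 1.30 in HFD mice, against 0.39 and -0.28 in ND mice at 9 months, a log2 difference of 1.17 ± 0.30 (SE, limma adjusted p = 0.0635). Il34, the other ligand, stood at -0.39 and -0.57 in HFD mice, against -0.92 and -1.41 in ND mice, a log2 difference of 0.69 ± 0.24 (SE, limma adjusted p = 0.124). Both ligands lay higher in both HFD mice at 9 months, where 28.5% of all features did, and at 3 months, where 35.6% did. The Csf1r probe used had a lower mean in HFD livers at 9 months, but its groups overlapped. The log2 difference at 9 months was 0.03 with A_55_P2025073 and -0.13 with A_52_P602091. None of the 5 genes passed in any comparison.

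Genes that macrophages share were arranged much like the resident markers. All 17 measured pan-macrophage and myeloid genes of 18 listed were higher in both HFD mice at 3 months, where 35.6% of all features were, with a median log2 difference of 1.43, and none passed in limma. At 9 months 1 of the 17 was higher in both HFD mice, where 28.5% of all features were, with a median log2 difference of 0.76. Their mean log2 level at 9 months was 1.33 and 1.65 in HFD mice, against 1.75 and 0.19 in ND mice.

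Several genes of recruited and lipid-laden macrophages passed the test between the diets. Of 12 lipid-associated macrophage genes 2 rose in HFD livers at 3 months, Trem2 and Itgax, and 7 at 9 months, with a median log2 difference of 1.21 and 2.46. Limma called 5.18% of all features at 3 months and 8.28% at 9 months, in either direction. At 3 months 10 of the 12 genes had a higher mean in HFD livers, and Cd9 (-0.36) and Fabp5 (-0.78) a lower one. At 9 months 12 of 12 had a higher mean. The 7 include Mmp12 and Gpnmb, which entered the test only through the HFD mice at 9 months, where they are high. Of the 2 ND mice of that duration they were well above background in 0 and 1. Their calls are therefore no support for the count. Neither gene was well above background in any mouse at 3 months. Both are also part of the counts of higher means, the medians and the list means, and are no support for those. Trem2, a lipid-sensing receptor, stood at 2.52 and 2.04 in HFD mice, against -1.69 and -2.57 in ND mice at 9 months, a log2 difference of 4.41 ± 0.34 (SE, limma adjusted p = 0.0056). Cd63, Atp6v0d2 and Itgax followed, with log2 differences of 2.50 ± 0.31, 2.42 ± 0.32 and 3.49 ± 0.49 (SE). The mean log2 level of the list was 1.84 and 1.88 in HFD mice, against -0.16 and -0.98 in ND mice at 9 months. Gene by gene the 2 HFD mice differed by -1.67 to 1.48 (mouse 1 minus mouse 2), with a median size of 0.46, against 0.32 for the resident markers in the same mice.

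Of 10 measured monocyte and recruited macrophage genes, Cx3cr1, the fractalkine receptor, rose at both durations, by 1.89 ± 0.31 (SE, limma adjusted p = 0.0302) at 3 months and by 2.96 ± 0.31 (SE, limma adjusted p = 0.0088) at 9 months on the log2 scale. Plac8 rose as well at 9 months, by 1.91 ± 0.40 (SE, limma adjusted p = 0.0413). Limma called 1 of the 10 at 3 months and 2 at 9 months, against 5.18% and 8.28% of all features. A higher mean in HFD livers was seen for 8 of the 10 at 3 months and 9 at 9 months, with medians of 1.56 and 1.32. Among them Ccr2 and F13a1 entered the test only through HFD mice, where they are high. They are therefore no support for these counts and medians. Ccr2 was well above background in 0 ND mice, and F13a1 in 0 at 3 months and 1 at 9 months. Vcan was lower in both HFD mice at both durations, by -0.96 and -0.68, and Itgam at 3 months, by -0.60. Whether the diet effect on these genes differs from that on the resident markers was not tested.

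Of 13 measured other scavenger and engulfment receptors and bridging proteins, Scara3 and Mfge8 rose in HFD livers at 3 months, by 1.18 ± 0.20 and 1.26 ± 0.26 (SE), and Mfge8 and Gas6 at 9 months, by 1.43 ± 0.26 and 1.33 ± 0.29 (SE). Scara3 entered the test only through the HFD mice at 3 months, where it is high. MFG-E8 bridges phosphatidylserine on dying cells to integrins, and GAS6 bridges it to TAM receptors. Of 9 measured proliferation genes 4 rose in HFD livers at each duration. Of all features limma called 5.18% at 3 months and 8.28% at 9 months, in either direction. The 4 were the replicative helicase genes Mcm2, Mcm5 and Mcm6 and the cyclin gene Ccna2. Ccna2 entered the test only through the HFD mice, where it is high, so its calls are no support for the count. It was well above background in 1 of the 2 ND mice at 3 months and in 0 at 9 months. Mcm6 rose by 2.34 ± 0.20 (SE) at 3 months and 1.27 ± 0.20 (SE) at 9 months. Mcm5 fell with feeding time on ND, by 2.20 ± 0.27 (SE, limma adjusted p = 0.031) on the log2 scale. Which cells of the liver carried these transcripts was not tested.

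Markers of other liver cells were set beside the diet comparison. None of 9 measured hepatocyte markers passed, with a median log2 difference of -0.55 at 3 months and -0.34 at 9 months. At 3 months 8 of the 9 were lower in both HFD mice, where 35.4% of all features were, and at 9 months 4 of the 9, where 26.1% were. Under 4 other scalings the median of the list was -0.76 to -0.24 at 3 months and -0.40 to -0.12 at 9 months. Of 10 sinusoidal endothelial markers limma called 1 at 3 months, Lyve1, higher in HFD livers by 2.28 ± 0.34 (SE, limma adjusted p = 0.0248). The median of the list was 0.64, and Kdr was lower in both HFD mice. At 9 months none of the 10 passed, with a median of 0.41. Of 9 measured stellate cell markers Pdgfra rose at 3 months and Rgs5 at 9 months, with medians of 0.77 and 0.95. Ecm1 and Ngfr were lower in both HFD mice at 3 months. Limma called 5.18% of all features at 3 months and 8.28% at 9 months, in either direction. The part of these cell types in the differences of the Kupffer cell markers was not tested.

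**Figure D5:**
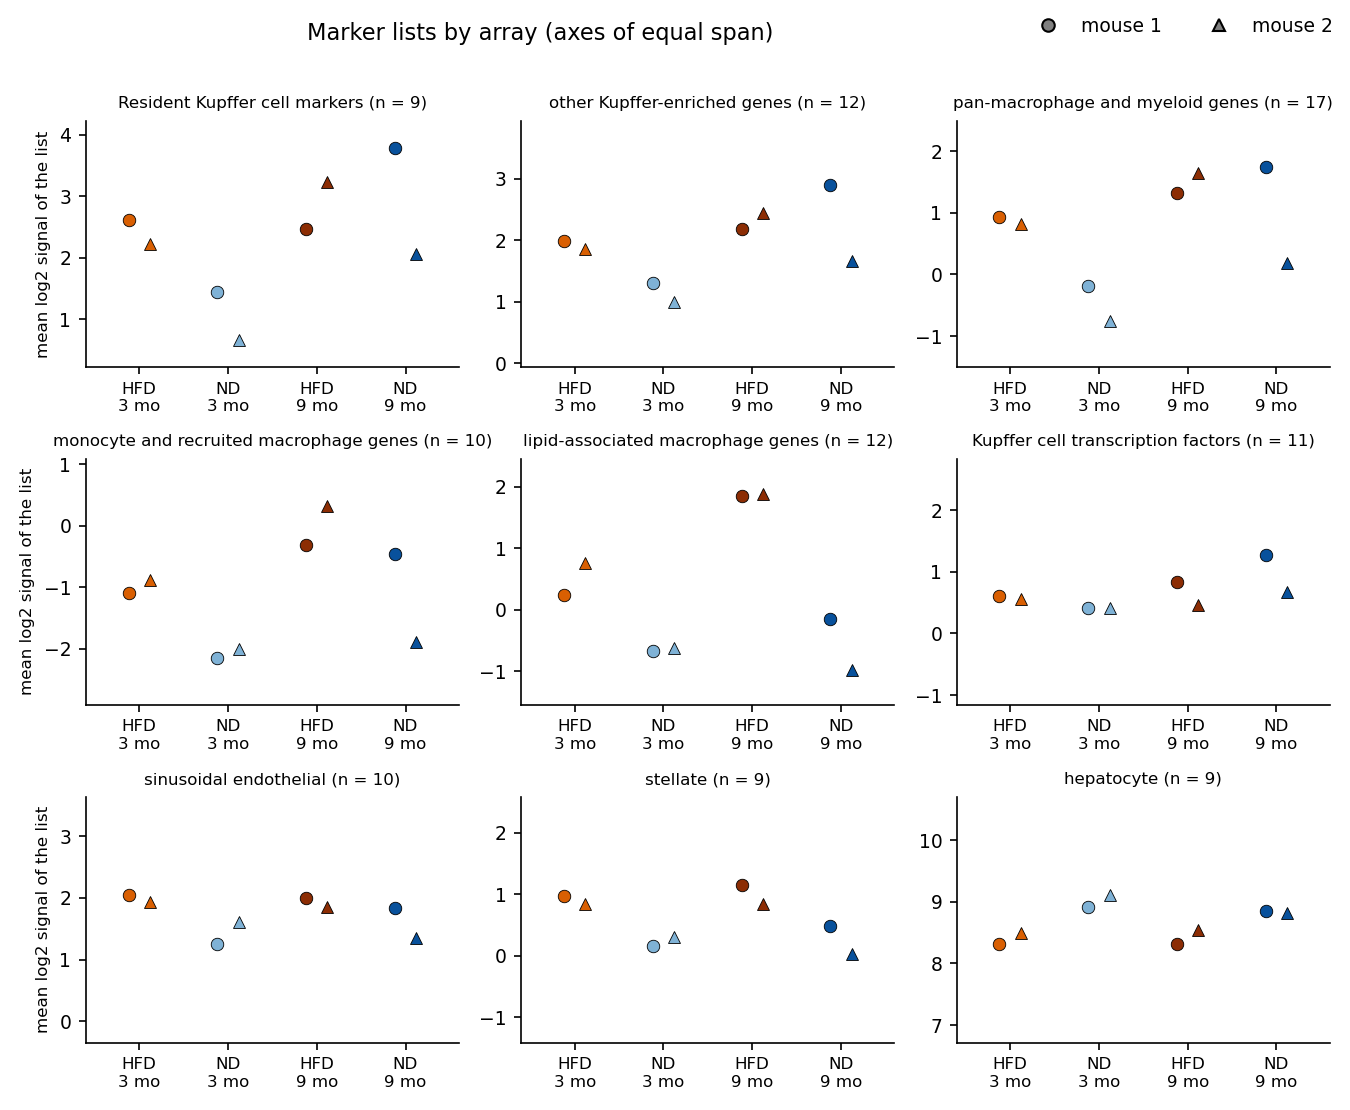
Mean log2 level of each gene list (y axis, all panels of equal span; n, measured genes) on each array (x axis, groups; circles mouse 1, triangles mouse 2). The 2 ND mice at 9 months are split for the resident markers (3.78 and 2.06) and the pan-macrophage genes (1.75 and 0.19), and lie close for the hepatocyte markers (8.85 and 8.82).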

How the data were processed

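RNA of 8 mouse livers, 1 array per animal and 2 animals per group, had been hybridised in 1 colour, and groups were taken from the sample titles; the description of 1 ND mouse names a disease model that its title does not. Per the file headers the deposited array files come from Agilent Feature Extraction 10.7.1.1, whose processed signal, an intensity, had been background-subtracted and detrended but not scaled across arrays. Median spot and background signals are intensity values without correction, and the deposited flags are other values, 0 or 1 per spot. A further table by the authors holds deposited log2 values with the rank order of the median signal within each array.

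Control spots (3671) were left out, and the log2 processed signal of 59305 spots was expressed relative to the array's own 75th percentile (pseudocount 0). A probe stayed in if both arrays of some group showed it well above background (25800 probes; a share of 0.5 or more of a probe's spots had to be), and the kept probe with the highest mean stood for its gene, which gave 20164 features, 12884 with a symbol. Accessions were named through RefSeq tables of GRCm38.p6 (26056 probes, 19752 symbols); the array annotation uses mm9, so no array coordinates are given.

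All features were tested with limma 3.58.1 (R 4.3.3, data.table, version 1.17.8) on 4 group means, with 4 residual and 2.33 prior degrees of freedom, at a Benjamini-Hochberg adjusted p under 0.05 in each of 5 comparisons. On simulated data of the 9-month diet comparison (20164 features) the fit found 5 of 67 features changed by 1 on the log2 scale, 42 of 67 changed by 2 and 46 of 66 changed by 3, with 2 false calls. Simulated noise was independent between features and few features were changed, unlike in the data. These rates therefore need not carry over to the markers. Promoters and figures used Python 3.11.15 with numpy 2.4.6, pandas 2.3.3 and matplotlib 3.10.9. The number of arrays limits the precision. The members and gene lists were chosen with earlier results of these data known. Named beside the members were, per list and comparison, up to 4 genes that passed or, where none did, up to 2 of the smallest p, and the 5 genes closest to the members' profile; C1qa, Cr2, Madcam1, Id3, Nr1h3, Csf1 and Il34 beyond the comparison that named them, and the levels of Tyrobp and Spic, were added for comparison after their values were seen. Over all features same-numbered mice deviated together little (correlations between -0.02 and 0.14 over pairs of groups). These correlations cannot exclude a pairing of some genes or an effect of slide column, which coincides with mouse number. The main fit used no pairing, and a fit with mouse number as a block is given below.

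Alternatives were quantile normalization, normexp with an offset of 50, the authors' log2 values, the 75th percentile of probes above background on all arrays, no filter or a stricter one on dim probes, a floor, the mean of the probes, other moderation, array weights, a replicate block, the arrays of a comparison alone, and each array left out. A fit of single probes and Csf1r from its other probes or left out were chosen after seeing the data.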

Additional observations from a re-analysis of the deposited data

Results flagged for a closer look

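Marco had opposite diet differences at the 2 durations: it was higher in both HFD mice at 3 months and lower in both HFD mice at 9 months than in the ND mice of the same duration. The interaction, tested in limma, was -4.21 on the log2 scale and did not pass (adjusted p = 0.628). The groups held 2 mice each, too few for a test of single outlying mice.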

How the results depend on the processing

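No member passed in the 5 comparisons, and this held in most alternatives. One member passed in HFD against ND at 3 months when the arrays compared were fitted alone, and 1 in 9 against 3 months on ND after normexp or with array weights. With 1 array left out the number that passed was 0 to 1 for HFD against ND at 9 months and 0 to 1 for 9 against 3 months on ND. The median log2 change of the members ran, with 1 array left out, between -0.52 and 1.25 for HFD against ND at 9 months, between -1.88 and -0.16 for the interaction and between 0.68 and 2.40 for 9 against 3 months on ND. At 3 months it stayed between 1.07 and 2.06 over all 23 alternatives. Under the 4 other scalings the median of all features moved by over 0.1 in 1 case, by 0.15 for 9 against 3 months on ND with the percentile of bright probes, where the members' median was 1.68.

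Several signs turned, not all of them of changes near 0: with both HFD mice Marco had a 2.84-fold higher mean in 9 against 3 months on HFD, with both ND mice Folr2 and Vsig4 in HFD against ND at 9 months were 0.79 and 0.67, and the interaction was -0.77 for Folr2 and -0.62 for Clec4f. The cause was not tested beyond the choice of probe or array named. Adgre1 in HFD against ND at 9 months was -0.087 after normexp, -0.025 in the authors' value table, -0.0039 with the percentile of bright probes, -0.31 as the mean of its probes and -0.64 with its second probe. Csf1r in HFD against ND at 3 months was 0.35 as the mean of its probes and 1.43 with A_52_P602091. With A_55_P2025073 it was 0.027 in HFD against ND at 9 months, 0.26 in the interaction and -0.040 in 9 against 3 months on ND, and after normexp it was -0.029 in 9 against 3 months on HFD. With 1 array left out, HFD against ND at 3 months ran between -0.36 and 0.035 for Csf1r. HFD against ND at 9 months ran between -1.11 and 1.17 for Adgre1, -0.52 and 1.25 for Cd5l, -0.034 and 1.61 for Folr2, and -0.19 and 1.53 for Vsig4. The interaction ran between -1.27 and 0.022 for Clec4f, -1.10 and 0.081 for Csf1r, -1.60 and 0.050 for Folr2, and -0.59 and 1.27 for Msr1. For 9 against 3 months on HFD the range was -0.17 to 0.22 for Csf1r, -0.14 to 0.44 for Folr2 and -0.11 to 3.12 for Marco, and on ND it was -0.054 to 1.13 for Csf1r and -0.57 to 1.29 for Msr1.

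With the mouse number as a replicate block 0 members passed in any comparison, and the smallest adjusted p of a member in limma was 0.101 for HFD against ND at 3 months and 0.136 for 9 against 3 months on ND. The block gave 803, 1358, 0, 0 and 56 calls over all features, against 1045, 1670, 0, 2 and 209, for HFD against ND at 3 months, at 9 months, the interaction, and 9 against 3 months on HFD and on ND. Over all alternatives calls ran from 0 to 3972 at 3 months, 0 to 2505 at 9 months, 0 to 3 in the interaction, 0 to 1933 for 9 against 3 months on HFD and 0 to 1409 on ND.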
